A study of Homo sapiens with 27 samples.

Results

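The carnitine shuttle and the enzymes of mitochondrial fatty acid beta-oxidation were followed through 10 genes, CPT1A, CPT2, SLC25A20, SLC22A5, ACADVL, ACADM, ACADS, HADHA, HADHB and ACAA2, which were taken by symbol from the 20987 genes of the deposited table. All 10 were present, and all 10 passed the filter on low values in each of the 3 cell lines. The table held poly(A) RNA sequencing of 27 libraries from human prostate cancer cells. LNCaP is an androgen-sensitive line, and 22Rv1 and LNCaP95 are castration-resistant lines, per the labels. Cells of each line were kept for 6 days, with no change of medium, in the vehicle DMSO or in IPI-9119 at 100 nM or 500 nM. IPI-9119 inhibits fatty acid synthase (FASN), the enzyme that builds palmitate from malonyl-CoA. Each of the 9 groups of line and dose held 3 libraries. The labels do not say whether these came from separate cultures, so p-values measure the spread between libraries, which may be technical. Both doses of a line were compared with the same 3 DMSO libraries.

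Long-chain fatty acids cannot cross the inner mitochondrial membrane as CoA esters. They pass it bound to carnitine: SLC22A5 (OCTN2) takes carnitine into the cell, CPT1A on the outer membrane makes acylcarnitine, SLC25A20 exchanges it across the inner membrane, and CPT2 turns it back into acyl-CoA. Each round of beta-oxidation then takes an oxidation by an acyl-CoA dehydrogenase (ACADVL, ACADM and ACADS for very long, medium and short chains), a hydration and another oxidation, and a thiolysis. The trifunctional protein of HADHA and HADHB carries out the later steps on long chains, and ACAA2 is a mitochondrial thiolase. Malonyl-CoA is known as an inhibitor of CPT1, which places this enzyme opposite fatty acid synthesis. Nuclear receptors of the PPAR family are known regulators of many of these genes.

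Promoter windows of 300 bases, from 250 before to 50 after the annotated start, are given from RefSeq (GRCh38.p14) for CPT1A, SLC25A20, ACAA2, SLC22A5 and HADHB. The first 3 were lower at 500 nM in the fit over the lines together, SLC22A5 was higher in it, and HADHB starts head to head with HADHA. Capitals mark matches to the motifs searched on both strands, and each sequence reads 5′ to 3′ on the strand of its gene. The CPT1A window lies on the minus strand at chr11:68844228-68844527, that of SLC25A20 on the minus strand at chr3:48898833-48899132 and that of ACAA2 on the minus strand at chr18:49813484-49813783. That of SLC22A5 lies on the plus strand at chr5:132369460-132369759, and that of HADHB on the plus strand at chr2:26244689-26244988.
CPT1A: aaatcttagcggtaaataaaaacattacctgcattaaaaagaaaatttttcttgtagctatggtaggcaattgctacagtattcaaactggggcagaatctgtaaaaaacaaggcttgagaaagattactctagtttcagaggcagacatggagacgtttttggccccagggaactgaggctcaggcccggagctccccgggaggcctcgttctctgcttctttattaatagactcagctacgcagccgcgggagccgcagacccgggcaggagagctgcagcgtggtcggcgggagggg
SLC25A20: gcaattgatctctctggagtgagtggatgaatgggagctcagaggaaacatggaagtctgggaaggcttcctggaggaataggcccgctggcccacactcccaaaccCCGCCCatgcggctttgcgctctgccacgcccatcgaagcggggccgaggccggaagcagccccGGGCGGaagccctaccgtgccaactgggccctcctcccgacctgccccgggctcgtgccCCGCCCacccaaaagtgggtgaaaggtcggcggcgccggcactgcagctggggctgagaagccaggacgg
ACAA2: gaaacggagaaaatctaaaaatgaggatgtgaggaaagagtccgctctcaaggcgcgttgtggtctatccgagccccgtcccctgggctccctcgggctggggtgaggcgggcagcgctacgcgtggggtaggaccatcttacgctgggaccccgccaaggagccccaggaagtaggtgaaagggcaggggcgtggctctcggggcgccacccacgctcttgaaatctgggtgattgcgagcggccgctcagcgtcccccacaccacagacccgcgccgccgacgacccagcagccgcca
SLC22A5: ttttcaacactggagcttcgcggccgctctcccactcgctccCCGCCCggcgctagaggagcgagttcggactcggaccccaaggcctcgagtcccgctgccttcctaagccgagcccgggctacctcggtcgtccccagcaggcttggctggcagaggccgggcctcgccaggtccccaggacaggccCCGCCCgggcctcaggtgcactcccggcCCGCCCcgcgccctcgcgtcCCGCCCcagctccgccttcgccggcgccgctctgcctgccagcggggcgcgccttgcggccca
HADHB: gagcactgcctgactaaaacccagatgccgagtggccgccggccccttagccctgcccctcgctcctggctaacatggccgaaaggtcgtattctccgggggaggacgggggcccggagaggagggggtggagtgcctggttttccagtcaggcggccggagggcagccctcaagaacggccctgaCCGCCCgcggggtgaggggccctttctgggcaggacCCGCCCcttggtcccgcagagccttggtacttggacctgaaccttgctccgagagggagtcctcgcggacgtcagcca

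The capitals in these windows are all GC boxes (GGGCGG, or its reverse complement). SLC25A20 held 3, SLC22A5 held 4 and HADHB held 2, while the windows of CPT1A and ACAA2 held no match to any motif searched. Over the 11 windows of the 10 genes (ACADVL has 2), 8 held a GC box, against 45% of 35116 RefSeq promoter windows of the same length, and 1 held a TATA box (TATAAA), against 11.5%. No window of these genes held the PPAR direct repeat, 2 copies of AGGTCA with 1 base of any kind between them (0.0228% of all windows), the single core AGGTCA (13.8%), the ERR element TCAAGGTCA, which also contains that core (0.353%) or the sterol regulatory element TCACNCCAC (1.13%). Nor did any hold the E-box CACGTG (7.26%), the ATF4 element TGATGNAAT (0.991%) or CCAAT (34.6%). The GC content was 65.7% for ACAA2, 67% for SLC25A20, 68% for HADHB and 75.3% for SLC22A5, all above the median of all windows of 58.7%, and CPT1A was below it at 50%. The starts of HADHA and HADHB lay 307 bases apart, so their windows shared 194 bases. The only GC box of the HADHA window lies in these bases and is 1 of the 2 of HADHB, so these windows are not independent in the count.

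The libraries held 14757874 to 26578881 reads in genes, and the member genes were read between 62 times (the lowest library for SLC25A20) and 14263 times (the highest for HADHA). All 7 of 7 luminal prostate markers reached a value of 10 in every group. Their sum in LNCaP was 60190 to 71822 with DMSO and 50083 to 52338 at 500 nM. With DMSO, 2, 3 and 1 of 4 neuroendocrine markers reached 10 in LNCaP, 22Rv1 and LNCaP95. The counts were 1, 3 and 2 of 4 for fibroblast, 1, 0 and 0 of 4 for basal, 1, 1 and 1 of 4 for endothelial and 0, 2 and 1 of 4 for immune markers. The transcript of the drug's target rose in 5 of the 6 comparisons of a dose with DMSO, which measures the message and not the enzyme's activity. FASN in LNCaP at 100 nM had 227517, 51994 and 45537 normalised counts and was not called (log2 change 1.18 ± 0.52, adjusted p = 0.115). The change was 0.44 without replicate 1 of that dose (adjusted p = 0.347). It was called with quantile normalisation (adjusted p = 0.0423), the replicate block (adjusted p = 0.00838), all 27 libraries in 1 fit (adjusted p = 0.0175) and LNCaP replicates 2 and 3 only (adjusted p = 0.00101). In LNCaP at 500 nM its call (adjusted p = 0.0145) was lost without DMSO replicate 2, DMSO replicate 3 or 500 nM replicate 1 (adjusted p = 0.0531 to 0.0596). Some libraries stood apart. These were replicate 1 of all 3 LNCaP groups, which differed from the other replicates by a chi-square per degree of freedom of 23.3 to 53.2, against 5.65 to 17.2 between replicates 2 and 3. FASN was highest in replicate 1 in each of these groups, at 54998 with DMSO (29273 and 28676 in the others) and 234767 at 500 nM (133676 and 126294). Others were 22Rv1 DMSO replicate 3 with 18444 genes above 0, and replicate 2 of both treated LNCaP95 groups with 7.56% and 6.92% of their signal on mitochondrial genes. The largest chi-square per degree of freedom of any replicate pair was 63.7, between 22Rv1 replicates 2 and 3 at 100 nM. The other pairs of that group had 26.9 and 14.0. The summed level of 8 proliferation genes, all of which reached 10 in every group, was 39815 to 44394 in LNCaP95 with DMSO, 11686 to 16103 at 100 nM and 10957 to 16275 at 500 nM. In LNCaP this sum was 4806 to 15113 with DMSO, 13937 to 24541 at 100 nM and 12937 to 15175 at 500 nM. Replicate 1 stood apart here too. The mean log2(value + 1) of these genes in LNCaP replicates 1, 2 and 3 was 10.58, 9.03 and 8.83 with DMSO. It was 10.50, 11.26 and 11.29 at 100 nM and 10.37, 10.60 and 10.58 at 500 nM. In 22Rv1 the sum was 36405 to 37148 with DMSO, 28385 to 34359.9 at 100 nM and 29559 to 32463 at 500 nM. It was lower in every treated than in every DMSO library of LNCaP95 and 22Rv1, and its part in the results below was not tested.

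Levels are normalised read counts of whole cultures, in which fewer cells of a type and less RNA per cell cannot be told apart. A gene was called when the Benjamini-Hochberg adjusted p of limma, taken over all genes tested, was under 0.05. Values of libraries are listed in the order of replicates 1, 2 and 3, and log2 changes are given with their standard error after ±. At 500 nM, 5 of the 10 genes were called in LNCaP (1 higher, 4 lower), where 20.8% of all genes were called (11% higher and 9.83% lower). In 22Rv1, 4 of 10 were called, all lower, against 6.97% of all genes (3.47% higher and 3.5% lower). In LNCaP95, 8 of 10 were called (3 higher, 5 lower), against 52.3% (28.2% higher and 24.1% lower). At 100 nM the count in LNCaP was 3 of 10 (1 higher, 2 lower), a share close to that of all genes (25.3%, or 13.7% higher and 11.6% lower). In 22Rv1 it was 2 of 10, both lower, where 6.55% of all genes were called (3.19% higher and 3.36% lower). In LNCaP95 it was 7 of 10 (2 higher, 5 lower), where 52.3% were called (28.2% higher and 24.1% lower). The median log2 change of the 10 genes at 500 nM was -0.31 in LNCaP, -0.25 in 22Rv1 and -0.16 in LNCaP95, and the median of all genes tested was -0.01, 0.00 and 0.03.

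**Figure D1:**
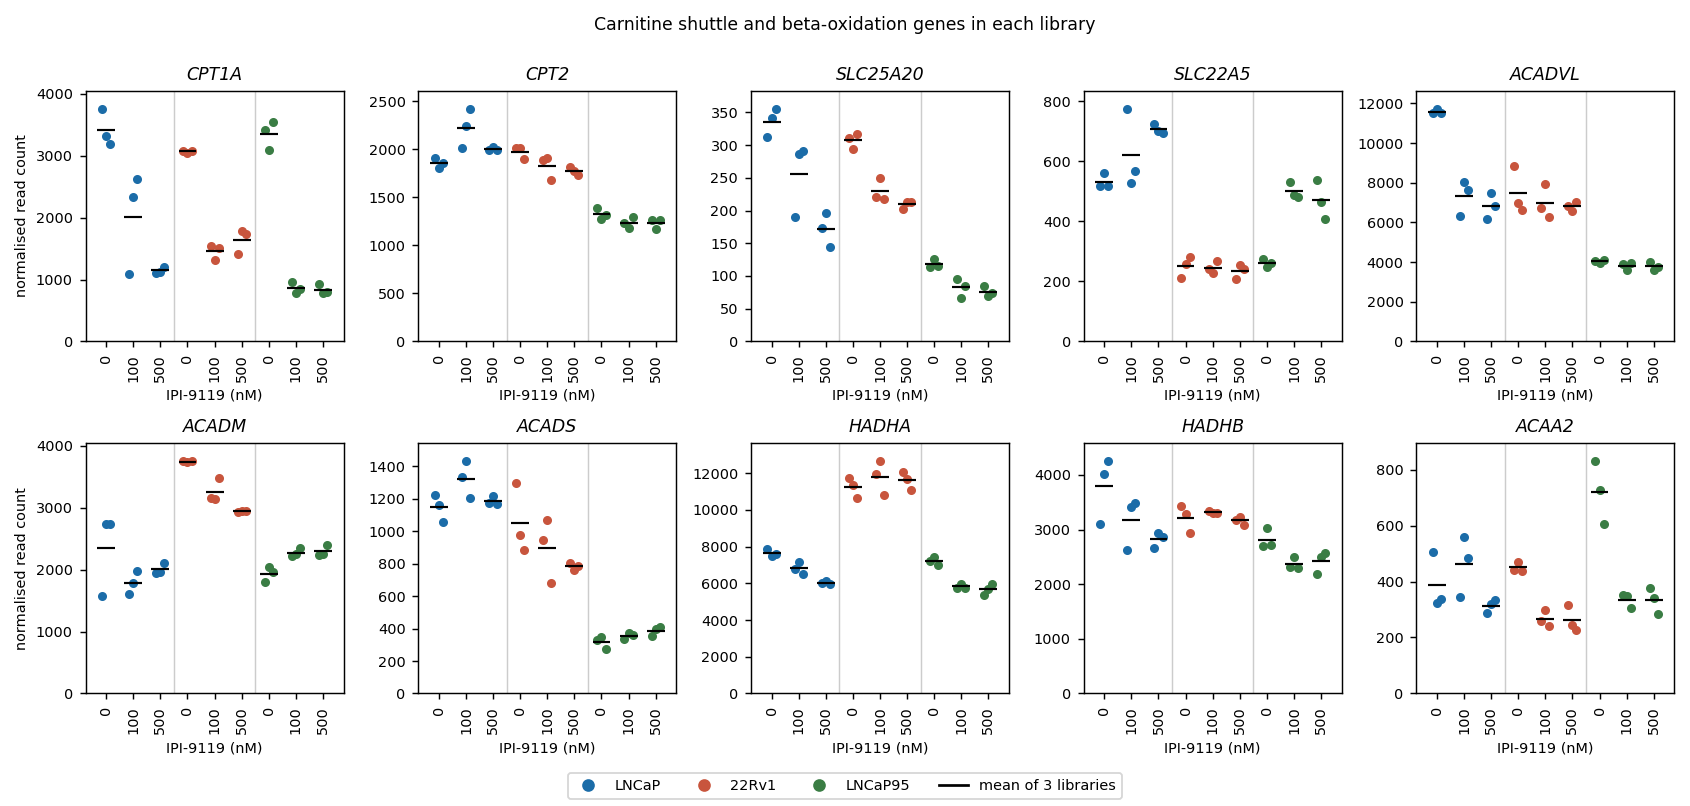
Normalised read count (vertical axes, from 0) of each of the 10 genes in the 27 libraries, by cell line (colour) and dose of IPI-9119 in nM (horizontal axes). Points are libraries and bars are means of 3 libraries. All treated libraries of each line lie below its DMSO libraries for CPT1A, and SLC22A5 is higher with drug in LNCaP95.

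SLC22A5, the sodium-dependent carnitine transporter of the plasma membrane, rose in LNCaP95 at both doses and in LNCaP at 500 nM. The LNCaP95 libraries held 276, 248 and 262 normalised counts with DMSO, 529.6, 488 and 481 at 100 nM and 538, 464 and 409 at 500 nM. Every treated library was above every DMSO library, and the change was 1.90-fold at 100 nM (log2 change 0.93 ± 0.10, adjusted p = 1.08e-05) and 1.78-fold at 500 nM (log2 change 0.84 ± 0.10, adjusted p = 2.49e-05). In LNCaP the values were 516, 560.3 and 519 with DMSO, 773, 526 and 566 at 100 nM and 725, 699 and 693 at 500 nM. The 500 nM libraries lay above the DMSO libraries (log2 change 0.41 ± 0.13, adjusted p = 0.0471), while at 100 nM replicate 1 alone was far above the others and the groups overlapped (0.21 ± 0.13, adjusted p = 0.263). The call at 500 nM in LNCaP was lost on leaving out any 1 of the 6 libraries compared (adjusted p = 0.062 to 0.132). The 22Rv1 values were 211, 259 and 279.5 with DMSO, 242, 227 and 268 at 100 nM and 208, 253 and 243 at 500 nM, which overlapped throughout, and the 95% interval of the log2 change at 500 nM was -0.40 to 0.23. SLC22A5 shares 73 exon bases with MIR3936HG on the other strand.

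CPT1A, the liver-type isoform of the enzyme that commits long-chain acyl groups to the mitochondrion, fell in all 3 lines at both doses. In LNCaP95 it had 3415, 3091 and 3541 normalised counts with DMSO, 956, 789 and 848 at 100 nM and 935, 775 and 799 at 500 nM. These groups were far apart from the DMSO libraries, and the level was 4.01-fold lower at 500 nM (log2 change -2.00 ± 0.09, adjusted p = 5.8e-08, 95% interval -2.20 to -1.80) and 3.88-fold lower at 100 nM (-1.96 ± 0.09, adjusted p = 6.82e-08). The 22Rv1 libraries held 3081, 3050.4 and 3082 with DMSO, 1544, 1308 and 1512 at 100 nM and 1409, 1783 and 1740.3 at 500 nM. Here the treated groups overlapped each other and lay below DMSO, 2.12-fold lower at 100 nM (-1.08 ± 0.11, adjusted p = 0.00017) and 1.88-fold lower at 500 nM (-0.91 ± 0.11, adjusted p = 0.000551).

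In LNCaP the CPT1A values were 3752, 3322 and 3189 with DMSO, 1093, 2329.7 and 2618 at 100 nM and 1107, 1121 and 1209.8 at 500 nM. Replicate 1 of the 100 nM group lay beside the 500 nM libraries, and the other two lay between these and the DMSO libraries. At 500 nM CPT1A was 2.98-fold lower than with DMSO (log2 change -1.57 ± 0.25, adjusted p = 0.00151), and at 100 nM it was 1.81-fold lower (-0.86 ± 0.25, adjusted p = 0.0278). The 100 nM call was lost without DMSO replicate 2 (adjusted p = 0.0698) or DMSO replicate 3 (adjusted p = 0.0627). Without 100 nM replicate 1 the log2 change was -0.47, with an adjusted p of 0.0105, and with LNCaP replicates 2 and 3 only, a choice made after seeing the data, it was -0.40 (adjusted p = 0.00753). This library was also the highest of its group for FASN, as replicate 1 was in the other LNCaP groups, and what sets it apart was not tested.

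SLC25A20, the carnitine-acylcarnitine translocase, fell in all 3 lines at 500 nM. The LNCaP values were 312, 341 and 355 with DMSO, 191, 287 and 291 at 100 nM and 173, 196 and 145 at 500 nM. All 500 nM libraries were below all DMSO libraries, 1.97-fold lower (log2 change -0.98 ± 0.18, adjusted p = 0.00309), and the 100 nM change was not called (-0.41 ± 0.18, adjusted p = 0.104). The 22Rv1 values were 311, 294 and 317 with DMSO, 221, 249.997 and 217 at 100 nM and 203, 214 and 214 at 500 nM. Both treated groups lay below the DMSO libraries, with log2 changes of -0.42 ± 0.12, adjusted p = 0.0518, at 100 nM and -0.55 ± 0.12, adjusted p = 0.0162, at 500 nM. The 500 nM call was lost without DMSO replicate 3 or any 1 of the 500 nM libraries (adjusted p = 0.0507 to 0.0654). The 100 nM change was called without 100 nM replicate 2 (adjusted p = 0.0418). LNCaP95 held 114, 126 and 115 with DMSO, 95.6, 66.7 and 85.2 at 100 nM and 84, 69.998 and 73.7 at 500 nM. It was 1.55-fold lower at 500 nM (-0.64 ± 0.16, adjusted p = 0.00447) and 1.44-fold lower at 100 nM (-0.53 ± 0.16, adjusted p = 0.0132). The latter call was lost without 100 nM replicate 2 (adjusted p = 0.0673), one of the libraries with a high mitochondrial share. At 62 to 374 reads a library, SLC25A20 was the least deeply read of the 10 genes at its lowest. The annotation also holds its pseudogene SLC25A20P1, with which reads could be shared.

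CPT2, which regenerates acyl-CoA in the mitochondrial matrix, passed the test in 1 of the 6 comparisons with DMSO, LNCaP at 100 nM, where 2011, 2243 and 2418 stood against 1907, 1802 and 1863 with DMSO (log2 change 0.26 ± 0.08, adjusted p = 0.0427). All 3 treated libraries were above the DMSO libraries. The call was lost without DMSO replicate 2 or 3 or 100 nM replicate 2 or 3 (adjusted p = 0.0943 to 0.144). It was also lost with equal library totals (adjusted p = 0.0581), TMM factors (adjusted p = 0.0525), quantile normalisation (adjusted p = 0.101), edgeR (adjusted p = 0.0546) or no filter on low values (adjusted p = 0.0516). At 500 nM the log2 changes were 0.11 ± 0.08 in LNCaP, -0.15 ± 0.09 in 22Rv1 and -0.11 ± 0.07 in LNCaP95, with 95% intervals of -0.07 to 0.29, -0.34 to 0.04 and -0.26 to 0.04. CPT2 shares 99 exon bases with C1orf123 and 524 with an antisense gene on the other strand, so its values are uncertain to that extent.

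ACADVL, the very long-chain dehydrogenase at the inner membrane, fell in LNCaP and in neither of the other lines. The LNCaP libraries held 11499, 11708 and 11527 with DMSO, 6341, 8026 and 7631 at 100 nM and 6191, 7458 and 6837 at 500 nM. The level went to 63.3% and 59% of the DMSO mean (log2 changes -0.67 ± 0.10, adjusted p = 0.00142, and -0.77 ± 0.10, adjusted p = 0.000603), and no treated library reached the DMSO range. In 22Rv1 the values were 8863, 6988 and 6628 with DMSO, 6711, 7922 and 6261 at 100 nM and 6824, 6575 and 7047 at 500 nM, all overlapping, and DMSO replicate 1 was the highest (-0.13 ± 0.12, adjusted p = 0.591 at 500 nM). LNCaP95 held less of it, 4056, 3937 and 4111 with DMSO and 4003, 3617 and 3768 at 500 nM, again overlapping (-0.09 ± 0.07, adjusted p = 0.29). The test of the difference itself was called against both lines. The 500 nM effect was higher by 0.64 ± 0.15, adjusted p = 0.00408 in 22Rv1 than in LNCaP, and by 0.68 ± 0.15, adjusted p = 0.0007 in LNCaP95 than in LNCaP. ACADVL shares 85 exon bases with DLG4 on the other strand.

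ACADM, the medium-chain dehydrogenase, moved in opposite directions in the castration-resistant lines. It fell in 22Rv1 at 500 nM, from 3747, 3733 and 3745 to 2929, 2941 and 2949.5 (log2 change -0.35 ± 0.08, adjusted p = 0.0233), with values between them at 100 nM (3163, 3136 and 3474; -0.20 ± 0.08, adjusted p = 0.162). None of these 3 groups overlapped, although the 500 nM call was lost on leaving out any 1 of the 6 libraries compared (adjusted p = 0.0535 to 0.0937). It rose in LNCaP95, from 1798, 2033 and 1957 to 2221, 2244 and 2342 at 100 nM (0.24 ± 0.07, adjusted p = 0.0111) and 2237, 2248 and 2397 at 500 nM (0.25 ± 0.07, adjusted p = 0.00774). All treated libraries there lay above all DMSO libraries, and the 100 nM call was lost without DMSO replicate 1 (adjusted p = 0.0587). The difference between the 500 nM effects of LNCaP95 and 22Rv1 was called (log2 0.60 ± 0.18, adjusted p = 0.0184). In LNCaP one DMSO library decided the result. The values were 1572, 2742 and 2735 with DMSO, 1605, 1779.6 and 1969.6 at 100 nM and 1939.8, 1966 and 2112 at 500 nM, and DMSO replicate 1 lay below all other LNCaP libraries. Neither dose was called (-0.18 ± 0.18, adjusted p = 0.507 at 500 nM), but without DMSO replicate 1 the log2 change was -0.45 at 500 nM (adjusted p = 0.00506) and -0.62 at 100 nM (adjusted p = 0.00063).

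ACADS, the short-chain dehydrogenase, passed the test only in LNCaP95 at 500 nM, where 353, 399 and 408 stood against 330.2, 349 and 275 with DMSO (log2 change 0.29 ± 0.11, adjusted p = 0.038). The groups did not overlap. That call was lost without DMSO replicate 1 or 3 or 500 nM replicate 2 or 3 (adjusted p = 0.0509 to 0.172). It was also lost with DESeq2 (adjusted p = 0.0801), edgeR (adjusted p = 0.0633) or equal library totals (adjusted p = 0.0594). In 22Rv1 the values were 1295, 976 and 884 with DMSO and 806, 763 and 784 at 500 nM, lower in every library but not called (-0.40 ± 0.17, adjusted p = 0.172). The difference between the 500 nM effects of LNCaP95 and 22Rv1 was called (log2 0.69 ± 0.19, adjusted p = 0.0102). LNCaP held 1224, 1161 and 1054 with DMSO and 1175, 1219 and 1169 at 500 nM, overlapping (0.05 ± 0.09, adjusted p = 0.721).

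**Figure D2:**
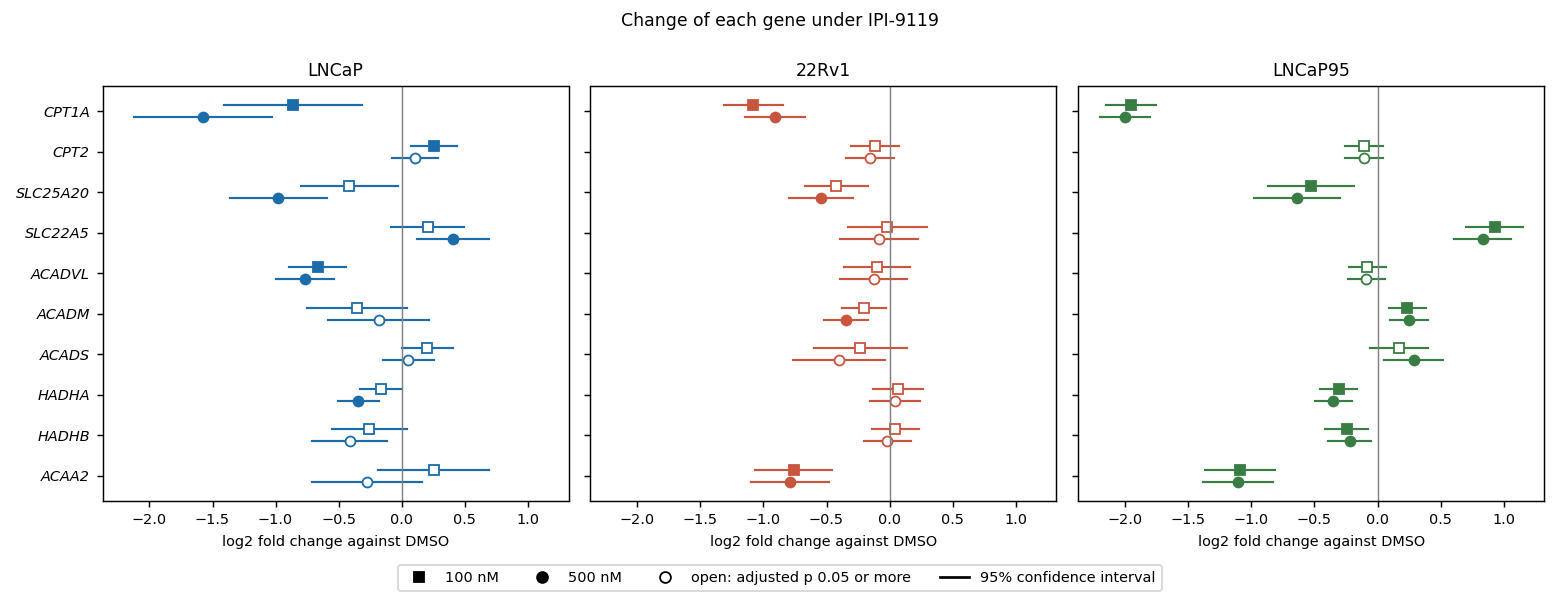
Log2 fold change against DMSO (horizontal axis) of each gene (vertical axis) at 100 nM (squares) and 500 nM (circles) in the 3 lines, with 95% confidence intervals from limma. Filled symbols mark an adjusted p under 0.05 and open symbols the rest. CPT1A is filled in every panel at both doses, and SLC22A5 lies right of 0 in LNCaP95, while its intervals cover 0 in 22Rv1.

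HADHA, the alpha subunit of the trifunctional protein with its hydratase and dehydrogenase activities, fell in LNCaP and LNCaP95 and not in 22Rv1. The LNCaP values were 7847, 7509.6 and 7596 with DMSO, 6804, 7184 and 6509 at 100 nM and 5995, 6131 and 5969 at 500 nM. All treated libraries were below DMSO, and the 500 nM change was called (-0.34 ± 0.07, adjusted p = 0.00831), the 100 nM change not (-0.16 ± 0.07, adjusted p = 0.125). In LNCaP95 the level went from 7217, 7433 and 7016 to 5760.4, 5969 and 5766 at 100 nM (-0.31 ± 0.07, adjusted p = 0.00185) and 5378, 5697 and 5943 at 500 nM (-0.35 ± 0.07, adjusted p = 0.000751), with no overlap. The 22Rv1 libraries, the highest of the 3 lines, held 11750.3, 11330.01 and 10669.6 with DMSO and 12049, 11659 and 11091 at 500 nM, and the log2 change was 0.04 ± 0.09, adjusted p = 0.819. The 500 nM effect of 22Rv1 differed from that of LNCaP (log2 0.39 ± 0.10, adjusted p = 0.00902), a call lost with equal library totals (adjusted p = 0.0687). It also differed from that of LNCaP95 (LNCaP95 minus 22Rv1, log2 -0.39 ± 0.10, adjusted p = 0.00509). The annotation holds the pseudogenes HADHAP1 and HADHAP2, whose reads could be shared with HADHA.

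HADHB, the beta subunit with the thiolase activity, fell in LNCaP95, from 2698, 3020.2 and 2714 to 2320.3, 2504 and 2295 at 100 nM (-0.24 ± 0.08, adjusted p = 0.0201) and 2180.4, 2497 and 2569.7 at 500 nM (-0.22 ± 0.08, adjusted p = 0.0323). The treated libraries were all below the DMSO libraries. The 500 nM call was lost without DMSO replicate 2 or 500 nM replicate 1 (adjusted p = 0.105 to 0.141), and also without replicate 2 of both treated groups (adjusted p = 0.0529). The 100 nM call was lost without DMSO replicate 2 or 100 nM replicate 1 or 3 (adjusted p = 0.0637 to 0.0694). In LNCaP it had 3098, 4021 and 4248 with DMSO, 2621, 3405 and 3478 at 100 nM and 2664, 2938 and 2871 at 500 nM, and DMSO replicate 1 was again the lowest of its group. The 500 nM change missed the threshold (log2 -0.41 ± 0.13, adjusted p = 0.051). It passed with the replicate block (adjusted p = 0.00519) and without DMSO replicate 1 (-0.55, adjusted p = 0.00523). The 100 nM change of -0.26 ± 0.13, adjusted p = 0.181 was called without DMSO replicate 1 (adjusted p = 0.0229). 22Rv1 held 3425, 3285 and 2939 with DMSO and 3183, 3236 and 3091 at 500 nM, overlapping (-0.02 ± 0.09, adjusted p = 0.924). In each line HADHA and HADHB stood side by side in log2 change at 500 nM: -0.34 and -0.41 in LNCaP, 0.04 and -0.02 in 22Rv1, and -0.35 and -0.22 in LNCaP95.

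ACAA2, the mitochondrial 3-ketoacyl-CoA thiolase, fell in both castration-resistant lines at both doses. LNCaP95 held 829, 726 and 604 with DMSO, 352, 348 and 305 at 100 nM and 378, 339.7 and 284 at 500 nM. The treated libraries lay far below DMSO, 2.15-fold lower at 500 nM (-1.10 ± 0.13, adjusted p = 1.38e-05) and 2.13-fold lower at 100 nM (-1.09 ± 0.13, adjusted p = 1.57e-05). The 22Rv1 values were 443, 471 and 437 with DMSO, 259, 298 and 242 at 100 nM and 316, 246 and 226 at 500 nM. Again no treated library reached the DMSO range, and the log2 changes were -0.76 ± 0.14, adjusted p = 0.00903 at 100 nM and -0.79 ± 0.14, adjusted p = 0.00673 at 500 nM. The 100 nM call in 22Rv1 was lost without 100 nM replicate 1 (adjusted p = 0.0512). In LNCaP the values were 507, 322 and 336 with DMSO, 344, 558 and 484 at 100 nM and 289, 321 and 333 at 500 nM. They overlapped, with DMSO replicate 1 the highest of its group, and neither dose was called (0.25 ± 0.20, adjusted p = 0.37 at 100 nM and -0.28 ± 0.20, adjusted p = 0.353 at 500 nM). The difference between the 500 nM effects of LNCaP95 and LNCaP was called (log2 -0.83 ± 0.25, adjusted p = 0.00939). ACAA2 shares 385 exon bases with another annotated gene on its own strand, AC090227.1.

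A fit to the 18 libraries without drug or at 500 nM allowed each line its own level and gave 1 drug change averaged over the lines. An averaged change need not be present in each line. Of the genes called in it, CPT1A, ACAA2, ACADVL, HADHA and SLC22A5 had 500 nM effects that differed between some of the lines. Of the 10 genes 7 were called (1 higher, 6 lower), against 22.9% of all genes (13% higher and 9.86% lower). The averaged log2 change was -1.50 ± 0.12, adjusted p = 1.83e-07 for CPT1A, -0.72 ± 0.08, adjusted p = 1.29e-05 for SLC25A20 and -0.72 ± 0.12, adjusted p = 0.000515 for ACAA2. These 3 calls held when the replicate number within the line was added as a block. ACADVL (-0.33 ± 0.09, adjusted p = 0.0151), HADHA (-0.22 ± 0.06, adjusted p = 0.015), HADHB (-0.22 ± 0.07, adjusted p = 0.0346) and SLC22A5 (0.39 ± 0.11, adjusted p = 0.0178) lost theirs. Their adjusted p with the block was 0.0576, 0.0595, 0.0527 and 0.0549, which leaves 3 of 10 called. The HADHB call was also lost without LNCaP DMSO replicate 2 or 3, any 1 of the LNCaP 500 nM libraries, LNCaP95 DMSO replicate 2 or LNCaP95 500 nM replicate 1 (adjusted p = 0.0538 to 0.0676). CPT2 (-0.05), ACADM (-0.09) and ACADS (-0.02) were not called.

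The size of the 500 nM effect was compared between lines in 1 fit over all 27 libraries. Between LNCaP95 and 22Rv1, 5 of the 10 genes differed, against 25.4% of all genes. They were CPT1A, whose drop was larger in LNCaP95 (log2 -1.09 ± 0.26, adjusted p = 0.00384), SLC22A5 (0.92 ± 0.18, adjusted p = 0.000845), and ACADM, ACADS and HADHA, given above. Between LNCaP95 and LNCaP 2 of 10 differed (ACADVL and ACAA2), against 38.9% of all genes, and between 22Rv1 and LNCaP 2 of 10 (ACADVL and HADHA), against 14.3%. The CPT1A effect of LNCaP was not called different from that of LNCaP95 (difference -0.43 ± 0.26, adjusted p = 0.207, 95% interval -0.97 to 0.11) or 22Rv1 (0.67 ± 0.26, adjusted p = 0.0924, 95% interval 0.12 to 1.21) in this fit. When only the libraries of the groups compared were fitted, both CPT1A differences were called (adjusted p = 0.016 and 0.00536), a fit that holds no 100 nM library. With the replicate number as a block, LNCaP95 also differed from LNCaP for SLC22A5 (0.43, adjusted p = 0.0391, against 0.0667 without it) and ACADM (0.43, adjusted p = 0.0226, against 0.0626). The LNCaP95 minus LNCaP difference was also called for SLC22A5 without LNCaP95 500 nM replicate 3 (adjusted p = 0.0336) and for ACADM without LNCaP DMSO replicate 1 (adjusted p = 1.43e-05). Between 22Rv1 and LNCaP, SLC22A5 was called without 22Rv1 DMSO replicate 1 (adjusted p = 0.0267), and HADHB (adjusted p = 0.00738) and ACAA2 (adjusted p = 0.029) without LNCaP DMSO replicate 1.

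The step from 100 nM to 500 nM moved none of the 10 genes past the threshold in any line, where limma called 0.00779% of all genes in LNCaP, 0% in 22Rv1 and 0% in LNCaP95. At an unadjusted p under 0.05, limma counted 4 of the 10 genes in LNCaP, against 1463 of all 12837 genes tested. It counted 0 of the 10 in the other lines, against 152 of 13563 in 22Rv1 and 95 of 12844 in LNCaP95. By edgeR and by DESeq2, 0 of the 10 were called in each line. The 4 were CPT1A (log2 -0.72 ± 0.25, adjusted p = 0.379), SLC25A20 (-0.56 ± 0.18, adjusted p = 0.356), ACAA2 (-0.53 ± 0.20, adjusted p = 0.387) and HADHA (-0.18 ± 0.07, adjusted p = 0.412), all lower at 500 nM. One library decided the CPT1A step in LNCaP: without 100 nM replicate 1 it was -1.11 (adjusted p = 0.00349). With LNCaP replicates 2 and 3 only, the steps of CPT1A (-1.08, adjusted p = 0.000211), SLC25A20 (-0.77, adjusted p = 0.0146) and ACAA2 (-0.67, adjusted p = 0.00843) were called. The 95% interval of the CPT1A step was -0.06 to 0.41 in 22Rv1 and -0.25 to 0.15 in LNCaP95.

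Levels without drug were set side by side per kilobase of exon, so that genes of different length can be compared. HADHA and ACADVL were the most abundant pair in every line, ACADVL leading in LNCaP at 4678 ± 45.7 normalised counts per kb (SD, n = 3) and HADHA leading in 22Rv1 at 3584 ± 174 and in LNCaP95 at 2301 ± 66.4. HADHB came next in each line, at 1696 ± 273, 1439.8 ± 112 and 1258 ± 81.2 in LNCaP, 22Rv1 and LNCaP95. ACADM followed, at 859 ± 246, 1369 ± 2.75 and 706 ± 44. CPT1A stood at 591 ± 50.8, 531 ± 3.10 and 579 ± 40.1, close to CPT2 at 584 ± 16.5, 621 ± 21.7 and 418 ± 19.5: the 2 ranges overlap within 1 SD in LNCaP only. At the low end were the transporters SLC22A5 (161 ± 7.52, 75.5 ± 10.6 and 79.1 ± 4.15) and SLC25A20 (178 ± 11.7, 163 ± 6.34 and 62.8 ± 3.57). The thiolase ACAA2 (106 ± 28, 123 ± 4.88 and 196 ± 30.7) was at the low end in LNCaP and 22Rv1, and in LNCaP95 it lay above ACADS. ACADS had the widest gap between lines as a ratio, at 549 ± 41.1, 503 ± 103 and 152 ± 18.5.

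**Figure D3:**
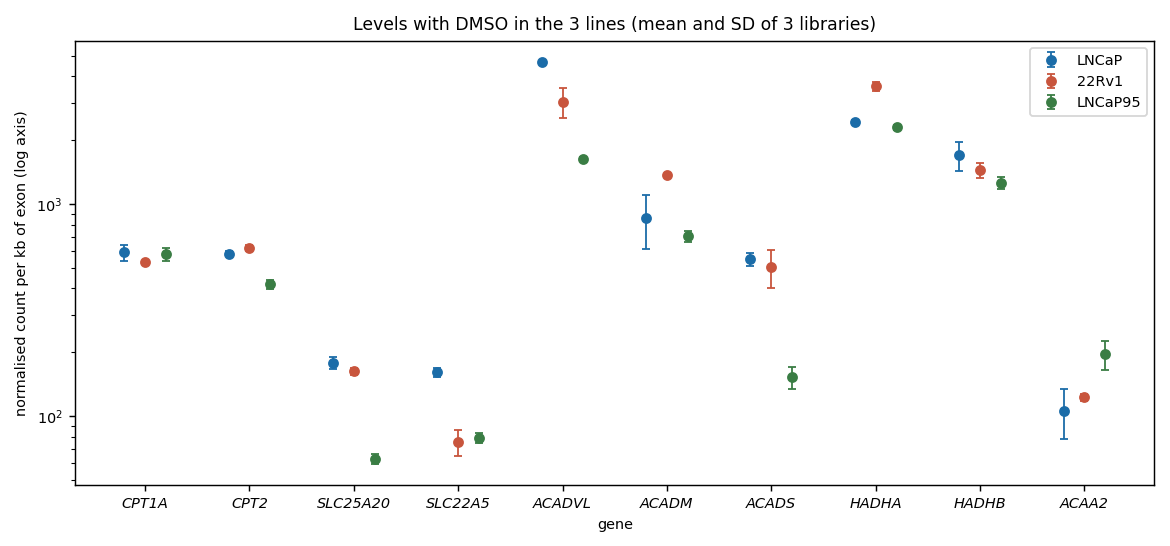
Normalised count per kb of exon (vertical log axis) of the 10 genes (horizontal axis) in the DMSO libraries of the 3 lines (colour), as mean and SD of 3 libraries. CPT1A is nearly level over the lines, whereas ACADVL, ACADS and SLC25A20 are lowest in LNCaP95 and ACAA2 is highest there.

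The DMSO libraries were also compared between lines, gene by gene on the log2 scale of the values. Against LNCaP, LNCaP95 had 7 of the 10 genes called (1 higher, 6 lower), where 66.5% of all genes were called (34% higher and 32.5% lower). Lower were ACADS (-1.85 ± 0.14, adjusted p = 1.66e-11), ACADVL (-1.52 ± 0.10, adjusted p = 3.75e-12), SLC25A20 (-1.50 ± 0.15, adjusted p = 6.93e-09), SLC22A5 (-1.02 ± 0.13, adjusted p = 2.37e-07) and CPT2 (-0.48 ± 0.07, adjusted p = 1.77e-06), and ACAA2 was higher (0.91 ± 0.17, adjusted p = 7.01e-05). HADHB was lower too (-0.42 ± 0.11, adjusted p = 0.00121), a call lost with equal library totals (adjusted p = 0.125), which moved the median of all genes from 0.01 to 0.21 in this comparison. Against LNCaP, 22Rv1 had 4 of 10 called, a smaller share than the 74.8% of all genes (39.3% higher and 35.5% lower). SLC22A5 (-1.10 ± 0.13, adjusted p = 4.72e-08) and ACADVL (-0.64 ± 0.10, adjusted p = 4.92e-06) were lower, and ACADM (0.72 ± 0.13, adjusted p = 2.35e-05) and HADHA (0.56 ± 0.07, adjusted p = 9.14e-08) were higher. LNCaP95 against 22Rv1 had 7 called (1 higher, 6 lower), where 76.1% of all genes were called (35.4% higher and 40.8% lower). ACAA2 was higher (0.66 ± 0.17, adjusted p = 0.00144), and CPT2, SLC25A20, ACADVL, ACADM, ACADS and HADHA were lower, with log2 changes between -0.57 for CPT2 and -1.71 for ACADS. CPT1A was called in none of the 3 (-0.15 ± 0.19, adjusted p = 0.47 for 22Rv1 and -0.03 ± 0.19, adjusted p = 0.906 for LNCaP95 against LNCaP, and 0.12 ± 0.19, adjusted p = 0.559 for LNCaP95 against 22Rv1). LNCaP DMSO replicate 1 decided some of the rest. HADHB was called between 22Rv1 and LNCaP without it or without 22Rv1 DMSO replicate 1 (adjusted p = 0.00243 to 0.0433). Without it ACAA2 was called there too (adjusted p = 0.023), and ACADM between LNCaP95 and LNCaP (adjusted p = 4.87e-06).

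Other genes of carnitine handling were counted from a list of 10. At 500 nM the calls were 0 higher and 2 lower of 7 tested in LNCaP, 0 higher and 2 lower of 9 tested in 22Rv1 and 1 higher and 1 lower of 6 tested in LNCaP95. Of all genes, 20.8% were called in LNCaP, 6.97% in 22Rv1 and 52.3% in LNCaP95, so the LNCaP share was near that of all genes and the LNCaP95 share below it. CPT1C, the brain-type relative of CPT1A, fell in LNCaP from 119.6 ± 38.2 to 43.9 ± 7.45 (SD, n = 3; log2 -1.39 ± 0.23, adjusted p = 0.00195). In 22Rv1 it fell from 229 ± 57.7 to 131 ± 18.9 (-0.78 ± 0.20, adjusted p = 0.0334), which did not pass without DMSO replicate 1 or 3 or any 1 of the 500 nM libraries (adjusted p = 0.0588 to 0.125). In LNCaP95 CPT1C was 210.2 ± 36.8 with DMSO and 216 ± 12.5 at 500 nM (0.05 ± 0.13, adjusted p = 0.753). CROT, the peroxisomal carnitine octanoyltransferase, fell in 22Rv1 from 1124 ± 81.7 to 674 ± 103 (-0.75 ± 0.14, adjusted p = 0.01; lost without 500 nM replicate 3, adjusted p = 0.0541). In LNCaP95 it fell from 728 ± 95.8 to 309 ± 69.1 (-1.25 ± 0.16, adjusted p = 2.8e-05). CRAT, the carnitine acetyltransferase, fell in LNCaP at 500 nM, from 2121 ± 337 to 1555 ± 43 (-0.44 ± 0.12, adjusted p = 0.0275). It lost the call without any 1 of the 500 nM libraries (adjusted p = 0.0666 to 0.0879) and with equal library totals. ALDH9A1, an enzyme of carnitine synthesis, rose in LNCaP95 from 4096 ± 120.1 to 4905 ± 285 (0.26 ± 0.07, adjusted p = 0.00752).

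Of 15 other genes of mitochondrial beta-oxidation, the calls at 500 nM were 2 higher and 3 lower of 14 tested in LNCaP, 0 higher and 2 lower of 15 tested in 22Rv1 and 2 higher and 8 lower of 14 tested in LNCaP95. The shares of all genes called were 20.8%, 6.97% and 52.3% (28.2% higher and 24.1% lower in LNCaP95). The median log2 change of the tested genes in LNCaP95 was -0.26, against 0.03 for all genes. ACSM3, a medium-chain acyl-CoA synthetase, fell in all 3 lines. It went from 1051 ± 129 to 729 ± 17.1 in LNCaP (-0.52 ± 0.13, adjusted p = 0.0198). It went from 1526 ± 159.7 to 929 ± 124 in 22Rv1 (-0.72 ± 0.12, adjusted p = 0.00403) and from 677 ± 97.1 to 378 ± 44.4 in LNCaP95 (-0.84 ± 0.12, adjusted p = 6.92e-05). The LNCaP call was lost without any 1 of the 500 nM libraries (adjusted p = 0.0528 to 0.0651) and with equal library totals (adjusted p = 0.0628). ETFB, a subunit of the flavoprotein that takes electrons from the dehydrogenases, fell in LNCaP95 from 3392 ± 372 to 1941 ± 203 (-0.80 ± 0.10, adjusted p = 1.7e-05). In LNCaP it fell from 5129 ± 1242 to 3384 ± 236 (-0.58 ± 0.17, adjusted p = 0.0319). This did not pass without DMSO replicate 1 or any 1 of the 500 nM libraries (adjusted p = 0.0509 to 0.106), nor with equal library totals.

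Within the same list, ACAD11 and HADH had opposite calls in LNCaP and LNCaP95. ACAD11, a further member of the acyl-CoA dehydrogenase family, was 319 ± 73.2 with DMSO and 163 ± 29.4 at 500 nM in LNCaP (-0.95 ± 0.19, adjusted p = 0.00515). In LNCaP95 it was 77.8 ± 6.93 and 148 ± 26.8 (0.91 ± 0.15, adjusted p = 0.000233). HADH, the dehydrogenase of medium and short chains, rose in LNCaP from 1645 ± 92.1 to 2195 ± 65.1 (0.42 ± 0.07, adjusted p = 0.00307) and fell in LNCaP95 from 1831 ± 36.5 to 1492 ± 124 (-0.30 ± 0.08, adjusted p = 0.00744). The difference between the 500 nM effects of LNCaP95 and LNCaP was called for both, at 1.86 ± 0.22, adjusted p = 7.28e-07, for ACAD11 and -0.72 ± 0.11, adjusted p = 1.56e-05, for HADH. Neither gene was called in 22Rv1 at 500 nM (-0.32 ± 0.12, adjusted p = 0.136, and -0.17 ± 0.09, adjusted p = 0.3).

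Peroxisomal oxidation shortens very long and branched chains outside the mitochondrion. Its calls at 500 nM were 3 higher and 2 lower of 13 tested in LNCaP, 2 higher and 1 lower of 12 tested in 22Rv1 and 4 higher and 3 lower of 13 tested in LNCaP95. The LNCaP95 share was about that of all genes (52.3%, or 28.2% higher and 24.1% lower), where LNCaP had 20.8% and 22Rv1 6.97% of all genes called. CAT, the catalase that removes the peroxide made there, fell in all 3 lines. Its level went from 3756 ± 121 to 2452 ± 104 in LNCaP (-0.62 ± 0.11, adjusted p = 0.00367). The change was from 2696 ± 99.3 to 1577 ± 91.7 in 22Rv1 (-0.77 ± 0.09, adjusted p = 0.000325) and from 2901 ± 219 to 2091 ± 81.8 in LNCaP95 (-0.47 ± 0.07, adjusted p = 0.000161). AMACR, the racemase of branched-chain acyl-CoA and a prostate cancer marker, rose in LNCaP from 1008 ± 61.6 to 2425 ± 439 (1.25 ± 0.12, adjusted p = 5.83e-05). In 22Rv1 it rose from 318 ± 27.3 to 492 ± 20.01 (0.63 ± 0.11, adjusted p = 0.00504). In LNCaP95, where it was the highest of the 3 lines, it was 3942 ± 306 with DMSO and 4211 ± 699.7 at 500 nM (0.09 ± 0.11, adjusted p = 0.52). PHYH, the phytanoyl-CoA hydroxylase, rose in LNCaP95 from 999.8 ± 49.5 to 1451 ± 63.9 (0.54 ± 0.07, adjusted p = 2.6e-05). ACOX3, a peroxisomal acyl-CoA oxidase, fell there from 668 ± 55 to 469.6 ± 58.9 (-0.51 ± 0.10, adjusted p = 0.000736). In LNCaP ACOX3 was called higher at 100 nM (0.57 ± 0.19, adjusted p = 0.0476), a call lost without any 1 of the libraries other than DMSO replicate 1 (adjusted p = 0.0819 to 0.173). That call was also lost with edgeR or no filter on low values. At 500 nM ACOX3 was called without DMSO replicate 1 (adjusted p = 0.00493).

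**Figure D4:**
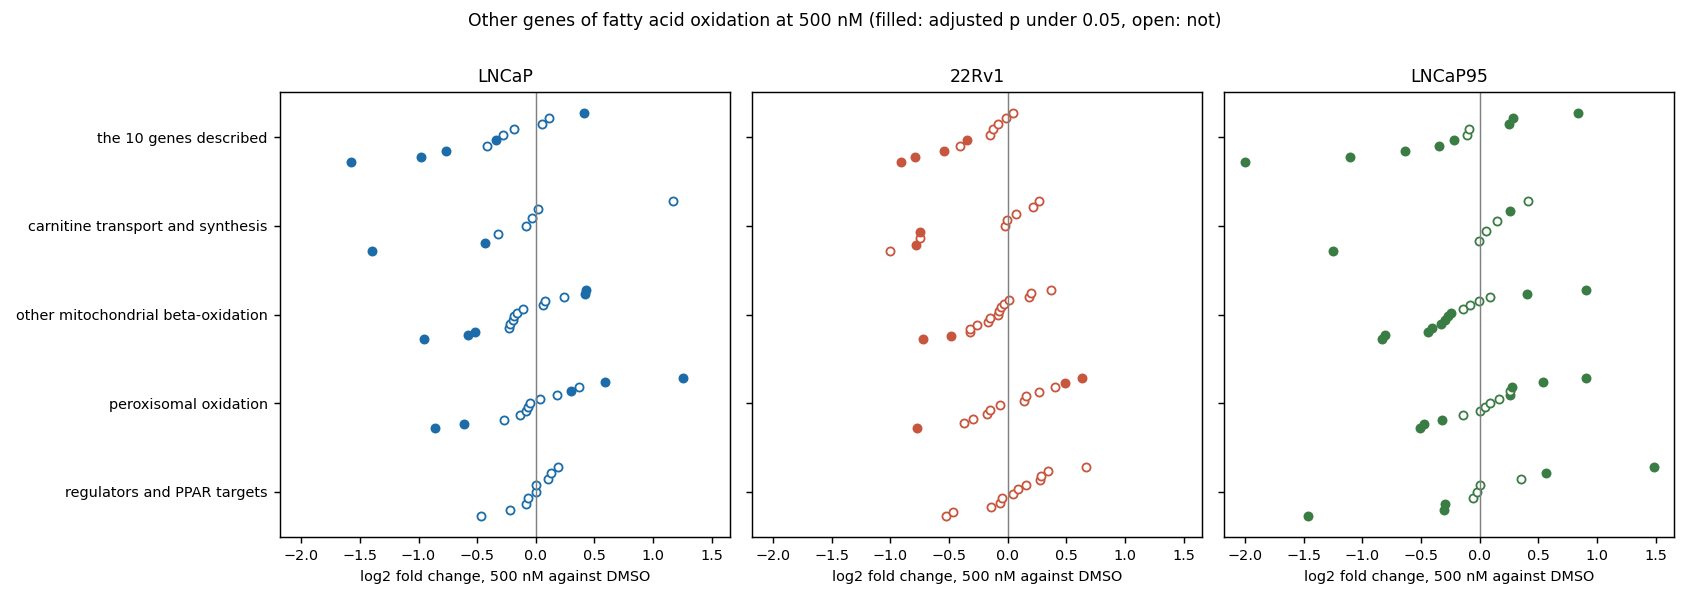
Log2 fold change at 500 nM against DMSO (horizontal axis) of each tested gene of the 10 described and of 4 further lists (rows) in the 3 lines. Filled points have an adjusted p under 0.05. LNCaP95 has the most filled points, as it has over all genes (52.3% called, against 20.8% in LNCaP and 6.97% in 22Rv1).

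Among 14 regulators and PPAR targets the calls at 500 nM were 0 higher and 0 lower of 9 tested in LNCaP, 0 higher and 0 lower of 12 tested in 22Rv1 and 2 higher and 3 lower of 9 tested in LNCaP95. The LNCaP95 share was near the 52.3% of all genes called there (28.2% higher and 24.1% lower), and the shares of all genes were 20.8% in LNCaP and 6.97% in 22Rv1. Of the listed genes tested at 500 nM, 0 of 9 in LNCaP and 2 of 12 in 22Rv1 had an unadjusted p under 0.05 in limma. Over all genes these counts were 4520 of 12837 and 3111 of 13563. Of the listed genes edgeR called 0 in both lines, and DESeq2 called 0 in LNCaP and 1 in 22Rv1. PPARA, the receptor best known for switching on fatty acid oxidation, rose in LNCaP95 from 109.6 ± 0.441 to 164 ± 17.6 (0.57 ± 0.12, adjusted p = 0.00141). With all 27 libraries in 1 fit its adjusted p was 0.103. PPARG, a receptor of fat storage, rose there from 29.99 ± 12.6 to 81.7 ± 13.7 (1.49 ± 0.29, adjusted p = 0.000827). It was 238 ± 9.64 with DMSO and 239.5 ± 23.2 at 500 nM in LNCaP (0.00 ± 0.12, adjusted p = 0.989), and did not reach the filter in 22Rv1. The coactivator PPARGC1B fell in LNCaP95 from 223 ± 30.2 to 81.8 ± 22.8 (-1.46 ± 0.19, adjusted p = 3.81e-05), as did the receptor ESRRA from 1962 ± 48.7 to 1603 ± 94.7 (-0.29 ± 0.07, adjusted p = 0.00233).

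BDH1, the dehydrogenase that interconverts ketone bodies, fell in LNCaP95 from 943 ± 51.9 to 787 ± 13.6 at 500 nM (-0.26 ± 0.07, adjusted p = 0.0102). It was called higher in LNCaP at 100 nM (0.41 ± 0.13, adjusted p = 0.0389; lost without DMSO replicate 2 or 3 or 100 nM replicate 2 or 3, adjusted p = 0.0885 to 0.145). With all 27 libraries in 1 fit the LNCaP95 adjusted p was 0.0723.

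The same 4 lists were counted at 100 nM. In LNCaP95, where 52.3% of all genes were called (28.2% higher and 24.1% lower), the calls were 1 higher and 1 lower of 6 tested for carnitine handling, 2 higher and 8 lower of 14 tested for mitochondrial beta-oxidation, 4 higher and 3 lower of 13 tested for peroxisomal oxidation and 2 higher and 2 lower of 9 tested for regulators. In LNCaP, where 25.3% of all genes were called (13.7% higher and 11.6% lower), they were 0 higher and 0 lower of 7 tested for carnitine handling, 3 higher and 1 lower of 14 tested for mitochondrial beta-oxidation, 4 higher and 0 lower of 13 tested for peroxisomal oxidation and 0 higher and 0 lower of 9 tested for regulators. In 22Rv1, where 6.55% of all genes were called (3.19% higher and 3.36% lower), they were 0 higher and 2 lower of 9 tested for carnitine handling, 0 higher and 2 lower of 15 tested for mitochondrial beta-oxidation, 2 higher and 1 lower of 12 tested for peroxisomal oxidation and 0 higher and 1 lower of 12 tested for regulators. For the carnitine list in LNCaP, which had no call by limma, 2 of 7 genes had an unadjusted p under 0.05, and edgeR and DESeq2 each called 1. For the regulators in LNCaP, 0 of 9 genes had an unadjusted p under 0.05, and edgeR and DESeq2 each called 0. Over all genes, 5023 of 12837 had an unadjusted p under 0.05 by limma in LNCaP at 100 nM.

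The genes whose levels followed CPT1A most closely were found by Pearson's r over the 27 libraries, after the mean of each line was taken away, among 11760 other genes that passed the filter in every line. The 5 closest were CTSC (r = 0.947), EPN2 (r = 0.916), IQGAP2 (r = 0.912), PNN (r = 0.912) and TAP2 (r = 0.909). Among the other members, SLC25A20 was nearest at r = 0.879 and rank 19, followed by ACAA2 at r = 0.809 and rank 103 and HADHA at r = 0.728 and rank 320. SLC22A5 lay near the other end, at r = -0.794 and rank 11425. ACADM (r = 0.024) and ACADS (r = -0.168) showed little likeness. These values describe 27 libraries in 3 lines that share treatment, depth and library factors, and they carry no test.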

How the data were processed

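The authors deposited 1 table of normalised read counts for 20987 genes in 27 libraries, a signal per gene rather than raw reads. The submitters' processing notes name STAR 2.3.1z4, featureCounts, DESeq and the build hg19. The labels' protocols give poly(A) selection, a directional kit and paired-end sequencing, and for the strand setting of the counting nothing was stated in the sources used. The smallest value above 0 in a library was taken as the worth of 1 read (0.757 to 1.39). Division by it gave whole numbers, within 1e-06, for 100% of the values in 27 of 27 libraries, 14757874 to 26578881 reads each. Replicates differed beyond sampling noise (chi-square per degree of freedom 4.97 to 63.7).

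The comparisons were fitted with limma 3.58.1 (R 4.3.3, trended variance) on log2(value + 1), so fold changes are on that scale and understate those of low genes. Genes needed a value of 10 in at least 3 fitted libraries, and p-values were adjusted by Benjamini-Hochberg over all genes tested. Comparisons of doses used the 9 libraries of a line, the effect averaged over the lines 18 libraries with the line as a term, and comparisons between lines all 27. Standard errors follow ±, and intervals are 95%. The design had assumed normalised values and was kept, and edgeR 4.0.16 and DESeq2 1.42.0 on the recovered reads were alternatives, with other pseudocounts, filters and scalings, a replicate block, other sets of libraries, and each library left out in turn. The limma and edgeR fits were tested on simulated counts with a fixed dispersion and independent libraries. This simulation held no library or replicate effect, so it does not cover the libraries that stood apart. The members and lists were chosen with earlier results of these data known. From each further list, up to 4 genes were named, those with the smallest p among genes called in any comparison of a dose with DMSO, and for likeness to CPT1A the 5 with the highest r. Some results of 1 list, of ketone body genes, are not reported here.

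Same-numbered libraries deviated together (every r over 0.1) between DMSO and 500 nM in LNCaP (0.131 to 0.316), between 100 nM and 500 nM in LNCaP (0.263 to 0.389) and in all 3 pairs of groups in LNCaP95 (0.128 to 0.470), a pairing read from the data, as the labels tie the numbers to nothing. They did not between DMSO and 100 nM in LNCaP (-0.003 to 0.082) or in 22Rv1. Exon lengths came from GENCODE v29 by symbol, and promoter windows from RefSeq (GRCh38.p14). These are another build than hg19, and no coordinates were joined between them.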

Additional observations from a re-analysis of the deposited data

Results flagged for a closer look

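In 9 cases the 500 nM effect on a gene differed between lines by the test of the difference itself, in the limma fit over all 27 libraries. Between LNCaP95 and 22Rv1 the difference in log2 change was -1.09 for CPT1A, 0.92 for SLC22A5, 0.60 for ACADM, 0.69 for ACADS and -0.39 for HADHA. For ACADM and ACADS the effects had opposite signs, 0.25 and 0.29 in LNCaP95 against -0.35 and -0.40 in 22Rv1. In 22Rv1 the ACADS effect was not itself called, and the ACADM call was lost on leaving out any of the libraries compared. In LNCaP95 the ACADS call was lost with edgeR, DESeq2 or equal library totals. Between LNCaP95 and LNCaP it was 0.68 for ACADVL and -0.83 for ACAA2. Between 22Rv1 and LNCaP it was 0.64 for ACADVL and 0.39 for HADHA. The proliferation sum, the high mitochondrial share of the treated LNCaP95 replicate 2 libraries and the LNCaP DMSO replicate 1 library differ between the lines as well, and their part in these differences was not tested.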

How the results depend on the processing

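In the 6 comparisons of a dose with DMSO, 17 of 29 calls on the members held under every alternative run, and 24 of 31 results that were not called stayed so. Over all 16 comparisons these were 45 of 63 and 74 of 97, and no called direction reversed. The counts of members called that moved by over 1.5 times follow. In LNCaP at 100 nM the count of 3 became 1 with equal library totals, 5 with all 27 libraries in 1 fit, 1 to 5 on leaving out 1 library and 6 with LNCaP replicates 2 and 3 only. In the LNCaP step from 100 to 500 nM the count of 0 became 0 to 1 on leaving out 1 library and 3 with LNCaP replicates 2 and 3 only. On leaving out 1 library, the 22Rv1 counts went from 4 to between 2 and 3 at 500 nM, and from 2 to between 1 and 3 at 100 nM. In LNCaP95 at 500 nM the count of 8 became 5 with all 27 libraries in 1 fit. With the replicate block the effect averaged over the lines went from 7 calls to 3, and the differences of LNCaP95 and of 22Rv1 from LNCaP from 2 to 4 each (the latter gaining SLC22A5, adjusted p = 0.04, and HADHB, adjusted p = 0.0119). The difference of LNCaP95 from LNCaP also went from 2 to 4 with DESeq2 and with only the groups compared, and to 5 with LNCaP replicates 2 and 3 only. That of 22Rv1 from LNCaP went to 4 with equal library totals, 2 to 4 on leaving out 1 library and 5 with LNCaP replicates 2 and 3 only. The cause was not tested, and both choices of leaving out replicates together were made after seeing the data. With equal library totals the share of all calls that were higher moved from 52.8% to 68.9% in LNCaP and from 49.8% to 26.7% in 22Rv1 at 500 nM. In LNCaP at 100 nM and in 22Rv1, where the numbers did not pair the libraries, the replicate block gained HADHB in LNCaP (adjusted p = 0.0344) and changed no other member. In the paired groups it changed no member call beyond those given in the report. No block was fitted for the 3 DMSO comparisons between lines, since the numbers are nested in the line. SLC25A20, at 62 to 374 reads, was the least deeply read member, though other members had larger standard errors.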
